A study of Macaca mulatta with 24 samples.

Results

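The genes described are lipocalins and other antimicrobial proteins of the mucosa, measured in the colon of rhesus macaques after total-body irradiation (TBI). The list holds LCN2, LCN15, S100A8, S100A9, S100A12, DEFB1, LYZ, PIGR, PLA2G2A and LTF, and every non-control probe of the array that carries any of these 10 names was taken. Of the 43603 probes on the array, 10 did so, for 8 of the 10 genes: LCN2 and S100A9 had 2 probes each and LCN15, S100A8, LYZ, PLA2G2A, DEFB1 and PIGR had 1 each. No probe carried the name S100A12 or LTF, so these genes have no value here. All 10 probes passed the filter on dim probes (a signal well above background on 2 or more of 24 arrays), as did 38234 probes in all, and no spot of the 10 was saturated on any array. The group was chosen by measured values, the day 4 increases of LCN2 and LCN15 on these arrays, so the day 4 values of these genes are given as a description without a test.

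The animals were 24 young-adult males, each giving a single array of total RNA from a whole piece of colon. The 4 controls were sham-irradiated, labelled dose 0 and day 4, and were the baseline for every later day. A single whole-body exposure to cobalt-60 gamma rays gave the others a dose of 6.7 Gy or of 7.4 Gy, with 4 animals per dose on day 4, 4 per dose on day 7 and 2 per dose on day 12. A text label gives another last day than the sample labels, which were followed. No control was taken on day 7 or 12, so the time after sham treatment and the irradiation cannot be told apart on those days. The RNA came from the whole gut wall, so for every gene a different number of cells of a type and a different amount of RNA per cell cannot be told apart.

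Mucosal antimicrobial proteins keep bacteria away from the gut epithelium in several ways. Some starve microbes of metals: LCN2 binds the siderophores with which bacteria collect iron, LTF binds iron itself, and S100A8 and S100A9 pair as calprotectin, which binds zinc and manganese and is abundant in neutrophils. Others attack the microbe: LYZ, lysozyme, cleaves the peptidoglycan of the cell wall, PLA2G2A is a secreted phospholipase that breaks down bacterial membranes, and DEFB1 is a small cationic peptide made by epithelia without stimulation. PIGR is the receptor on epithelial cells that carries dimeric immunoglobulin A into the lumen, and LCN15 is a less studied lipocalin. LCN2, S100A8 and S100A9 are known as genes that inflammatory signals through NF-kB and STAT3 switch on.

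All values are log2 processed signals relative to the 75th percentile of the same array, so 0 is a signal at that percentile and a difference of 1 is a 2-fold change. The percentile lay between 550.7 and 963.6 intensity units, 66.8% to 85.0% of probes on each array exceeded background, and the correlation of arrays within a group, taken over probes, ran from 0.963 to 0.985. A probe was called where the adjusted p of a limma fit over all 38234 probes was under 0.05 and the change was 2-fold or more. The brightness of different probes is not comparable, so levels are compared only within a probe.

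On day 4 the lipocalin probes lay above every control in every animal, and the calprotectin probes in most. Lysozyme was called higher at the higher dose and PLA2G2A at the lower. The beta-defensin DEFB1 overlapped the controls, and PIGR lay below them at the higher dose. On day 7 the dimmer LCN2 probe was still called higher. At 6.7 Gy the calprotectin probes lay above every control, on S100A8 and the brighter S100A9 probe narrowly. At 7.4 Gy they overlapped the controls, and they were called at neither dose. PIGR had passed from its day 4 low to a tight level near the top of the control range and was not called against the controls. On day 12 no probe was called against the controls, with 2 animals per dose.

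**Figure D1:**
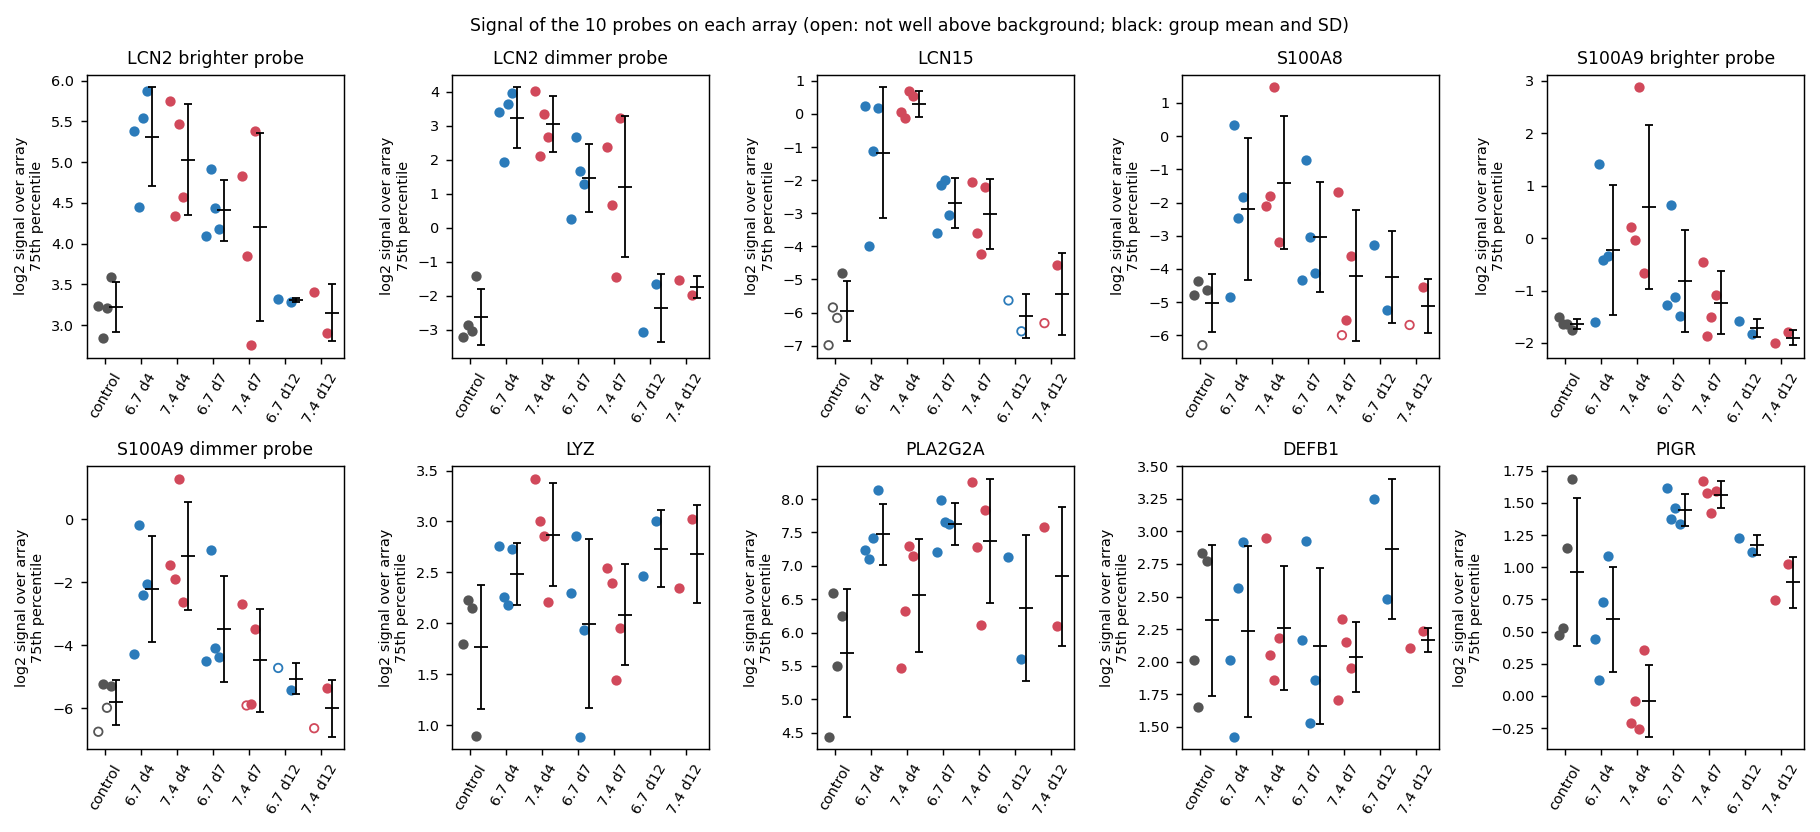
Log2 signal over the array's 75th percentile (y axis) of the 10 probes on each of the 24 arrays, by group (x axis: dose in Gy and day); filled points were well above background, open points were not, and the black bars are the group mean and SD. Both LCN2 probes and LCN15 lie above every control on all 8 arrays of day 4, and the 8 PIGR values of day 7 lie between 1.34 and 1.67.

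LCN2 was measured by 2 probes. On the brighter probe the 4 controls read 3.24, 2.85, 3.21 and 3.59. On day 4 the 4 animals given 6.7 Gy read 5.38, 4.45, 5.54 and 5.87, and those given 7.4 Gy read 5.75, 4.33, 5.47 and 4.57. All 8 irradiated values were above every control, by 4.25-fold on average at 6.7 Gy and 3.50-fold at 7.4 Gy. On the dimmer probe the controls read -3.21, -2.86, -3.05 and -1.42, and were well above background on 4 of 4 arrays. The day 4 values of that probe were 3.40, 1.93, 3.65 and 3.96 at 6.7 Gy and 4.03, 2.13, 3.36 and 2.68 at 7.4 Gy. The groups were again fully apart, and the increase on this probe was 58.4-fold at 6.7 Gy and 51.4-fold at 7.4 Gy, so the probes of this gene gave the same direction with very different sizes.

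The later days of LCN2 were tested. As for LCN15, the tests against control use the same 4 controls as the day 4 increases that chose the group. They are therefore not independent of that choice. On day 7 the dimmer probe read 0.25, 2.67, 1.67 and 1.29 after 6.7 Gy, all above the controls, and 2.38, 0.67, -1.43 and 3.25 after 7.4 Gy, where replicate 3 lay at the level of the highest control. It was 17.2-fold higher than in the controls at 6.7 Gy (log2 4.10 ± 0.78, SE, limma adjusted p = 0.0271) and 14.4-fold higher at 7.4 Gy (log2 3.85 ± 0.78, adjusted p = 0.0295), above the control mean in 4 of 4 animals at each dose. These calls are fragile: that at 6.7 Gy was lost without control replicate 2 or 3 or without replicate 2, 3 or 4 of the group, and that at 7.4 Gy without control replicate 1, 2 or 3 or without replicate 1, 2 or 4 of the group. On the brighter probe the day 7 change was 2.28-fold (adjusted p = 0.344) after the lower dose and 1.98-fold (adjusted p = 0.412) after the higher, and neither was called. Replicate 3 of 7.4 Gy day 7 had the lowest LCN2 signal of all 16 irradiated animals of days 4 and 7 on both probes, 2.76 on the brighter. On day 12 the dimmer probe read -3.07 and -1.65 after 6.7 Gy and -1.52 and -1.98 after 7.4 Gy, inside the control range, and it was 10.5-fold lower than on day 7 over both doses (adjusted p = 0.0466, called; lost without 9 of the 12 arrays in turn and under 9 of 18 other settings, the replicate block among them).

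LCN15 was near background in unirradiated colon. The controls read -6.99, -5.85, -6.16 and -4.82, and only the last was well above background, so the control level is imprecise. On day 4 the probe read 0.23, -3.99, -1.13 and 0.17 after 6.7 Gy and 0.05, -0.12, 0.70 and 0.55 after 7.4 Gy, and it was well above background on all 8 arrays. These were 27.4-fold and 76.1-fold differences from the measured control mean (log2 4.78 and 6.25). Their size depended on the processing: at 6.7 Gy the log2 change was 2.17 with normexp background correction. At 7.4 Gy the lowest log2 change under any alternative was 3.32. The 4 animals at 7.4 Gy lay close together (SD 0.39), while replicate 2 at 6.7 Gy was far below the other 3 of its group. On day 7 the values were -3.60, -2.13, -2.01 and -3.05 after 6.7 Gy and -2.05, -3.59, -4.25 and -2.21 after 7.4 Gy, above all 4 controls at both doses. The day 7 differences of 9.56-fold (log2 3.26 ± 0.75, SE, limma adjusted p = 0.0629) and 7.62-fold (log2 2.93 ± 0.75, adjusted p = 0.0924) did not pass the threshold over all probes. On day 12 the probe read -5.64 and -6.57 after 6.7 Gy and -6.32 and -4.56 after 7.4 Gy, and only the last of these arrays was well above background. The difference of day 12 from day 7 over both doses was 7.51-fold lower (adjusted p = 0.0773, not called), although all 4 arrays of day 12 lay below all 8 of day 7.

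The calprotectin subunits varied widely among irradiated animals. S100A8 read -4.78, -4.37, -6.30 and -4.62 in the controls, where replicate 3 was not well above background. On day 4 it read -4.85, 0.34, -2.46 and -1.84 after 6.7 Gy and -2.09, -1.82, 1.47 and -3.19 after 7.4 Gy. Replicate 1 at 6.7 Gy stayed in the control range, while replicate 2 at 6.7 Gy and replicate 3 at 7.4 Gy were the highest of all 24 arrays. At 7.4 Gy the increase was 12.2-fold (log2 3.61 ± 1.14, SE, limma adjusted p = 0.0312), higher than the control mean in 4 of 4 animals, and at 6.7 Gy the difference of 7.04-fold was not called (adjusted p = 0.121). The 7.4-Gy call was lost without control replicate 1, 3 or 4 and without replicate 3 of the group.

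S100A9 showed the same animals at the top on both of its probes. On the brighter probe the controls lay close together, at -1.51, -1.64, -1.63 and -1.75. The day 4 values were -1.60, 1.41, -0.41 and -0.34 after 6.7 Gy and 0.21, -0.04, 2.87 and -0.66 after 7.4 Gy. Replicate 1 at 6.7 Gy again lay among the controls, and all 4 animals at 7.4 Gy lay above them. The increase at 7.4 Gy was 4.69-fold (log2 2.23 ± 0.64, SE, limma adjusted p = 0.0198; lost without replicate 3 of the group), and the 6.7-Gy difference of 2.63-fold was not called (adjusted p = 0.175). The dimmer probe, at -6.75, -5.23, -5.99 and -5.31 in the controls and well above background on 2 of those 4 arrays, was called at both doses. It read -4.28, -0.18, -2.39 and -2.07 after 6.7 Gy and -1.45, -1.90, 1.29 and -2.64 after 7.4 Gy, with no overlap with the controls. Its increase was 12.0-fold at 6.7 Gy (adjusted p = 0.0253; lost without control replicate 1 or 3 or without replicate 2 of the group) and 25.0-fold at 7.4 Gy (adjusted p = 0.00273, kept with any array left out but lost with array position as a block).

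On day 7 all 4 animals given 6.7 Gy lay above every control on the 3 calprotectin probes, while those given 7.4 Gy overlapped the controls. The margin at 6.7 Gy was narrow on S100A8 (lowest -4.35, highest control -4.37) and the brighter S100A9 probe (lowest -1.49, highest control -1.51). S100A8 read -4.35, -0.72, -3.02 and -4.11 after 6.7 Gy and -1.68, -6.00, -5.54 and -3.60 after 7.4 Gy, and the brighter S100A9 probe read -1.28, 0.63, -1.12 and -1.49 and -0.47, -1.87, -1.50 and -1.09. Replicate 2 at 6.7 Gy and replicate 1 at 7.4 Gy were the highest of their groups for both genes. None of the calprotectin probes was called against the controls on day 7, with adjusted p between 0.433 and 0.881. Over both doses the dimmer S100A9 probe fell 4.86-fold from day 4 to day 7 (limma adjusted p = 0.0194), whereas the difference for S100A8 of 3.54-fold (adjusted p = 0.102) and that of the brighter S100A9 probe of 2.30-fold (adjusted p = 0.0572) were not called. In the same comparison 2 of 10 neutrophil markers were called lower, where 4.44% of all probes were called in either direction. The part of neutrophil number in the S100A9 difference was not tested.

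The enzymes, LYZ and PLA2G2A, were each called on day 4 at a single dose. LYZ read 1.80, 2.23, 2.15 and 0.90 in the controls, 2.76, 2.26, 2.18 and 2.73 on day 4 after 6.7 Gy, and 3.42, 3.00, 2.86 and 2.21 on day 4 after 7.4 Gy. The 7.4-Gy group overlapped the controls by replicate 4 alone, and it was 2.15-fold higher (SE of the log2 change 0.38, limma adjusted p = 0.0445). That call was near the threshold: it was lost without control replicate 1 or 4, without replicate 1, 2 or 3 of the group, and under 7 of 18 other processing settings. At 6.7 Gy the difference was 1.64-fold (adjusted p = 0.240). On day 12 LYZ read 2.47 and 3.00 after 6.7 Gy and 2.34 and 3.02 after 7.4 Gy, all 4 above the highest control, with differences of 1.95-fold (adjusted p = 0.703) and 1.88-fold (adjusted p = 0.753) that were not called with 2 animals each.

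PLA2G2A spread widely among unirradiated animals, at 4.44, 6.59, 5.50 and 6.24. On day 4 it read 7.23, 7.11, 7.41 and 8.13 after 6.7 Gy, all above the controls, but 5.47, 6.32, 7.30 and 7.15 after 7.4 Gy, where 2 of the 4 animals lay among the controls. The 6.7-Gy group was 3.42-fold higher (log2 1.78 ± 0.53, SE, limma adjusted p = 0.0392), a call lost without control replicate 1 or 3 or without any single array of the group, and the 7.4-Gy difference was 1.82-fold (adjusted p = 0.263). The doses did not differ by the test on day 4, with 7.4 Gy 1.88-fold below 6.7 Gy (adjusted p = 0.866). On day 7 PLA2G2A read 7.21, 7.98, 7.65 and 7.63 after 6.7 Gy and 8.26, 7.28, 6.11 and 7.84 after 7.4 Gy. The day 7 differences from control of 3.80-fold (adjusted p = 0.131) and 3.20-fold (adjusted p = 0.189) were not called, although at 6.7 Gy no animal overlapped the controls. From day 4 to day 7 over both doses the difference was 1.40-fold higher (adjusted p = 0.366), while LYZ was 1.56-fold lower (adjusted p = 0.0836), and neither was called.

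DEFB1 was not called in any comparison. The controls read 2.02, 1.65, 2.83 and 2.78, the day 4 arrays lay between 1.42 and 2.92 at 6.7 Gy and between 1.86 and 2.95 at 7.4 Gy, and those of day 7 lay between 1.53 and 2.93. The day 4 differences were 1.06-fold lower at 6.7 Gy (log2 -0.09 ± 0.35, SE, limma adjusted p = 0.909) and 1.04-fold lower at 7.4 Gy (log2 -0.06 ± 0.35, adjusted p = 0.928), and their sign turned with spike-in scaling. On day 12 the 6.7-Gy animals read 3.25 and 2.48 and the 7.4-Gy animals 2.10 and 2.23, and the dose difference was not called (adjusted p = 0.999).

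PIGR was lower on day 4 than on day 7. It read 0.47, 0.53, 1.15 and 1.69 in the controls, 0.44, 0.13, 0.73 and 1.08 on day 4 after 6.7 Gy, and -0.21, -0.04, -0.26 and 0.36 on day 4 after 7.4 Gy. At 7.4 Gy all 4 animals lay below every control, a 1.99-fold difference (SE of the log2 change 0.23, limma adjusted p = 0.00534) just short of the 2-fold that a call requires. At 6.7 Gy the difference was -0.36 ± 0.23 (adjusted p = 0.338). On day 7 the probe read 1.62, 1.37, 1.46 and 1.34 after 6.7 Gy and 1.67, 1.57, 1.42 and 1.59 after 7.4 Gy. The spread was 0.12 and 0.10 (SD, n = 4) against 0.57 (SD, n = 4) in the controls. The controls at 0.47 and 0.53 were scanned on the first scan day, those at 1.15 and 1.69 on the second. Within scan days, the log2 difference of day 7 from control at 6.7 Gy was 0.99 on the first and -0.02 on the second. At 7.4 Gy it was 1.003 and 0.20. The part of scan day in the control spread was not tested. Both groups of day 7 overlapped the controls and were not called against them, at 1.40-fold (limma adjusted p = 0.509) and 1.52-fold higher (adjusted p = 0.306). Every day 7 animal was above every day 4 animal of either dose, and PIGR rose 2.34-fold from day 4 to day 7 over both doses (log2 1.22 ± 0.16, SE, adjusted p = 5.36e-05). This call was kept under all 16 alternatives that could be fitted and with any array left out. Array position as a block could not be fitted, since days 4 and 7 shared no position. On day 12 it read 1.23 and 1.12 after 6.7 Gy and 0.74 and 1.02 after 7.4 Gy, all below the 8 arrays of day 7 (1.39-fold lower over both doses, adjusted p = 0.439, not called).

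**Figure D2:**
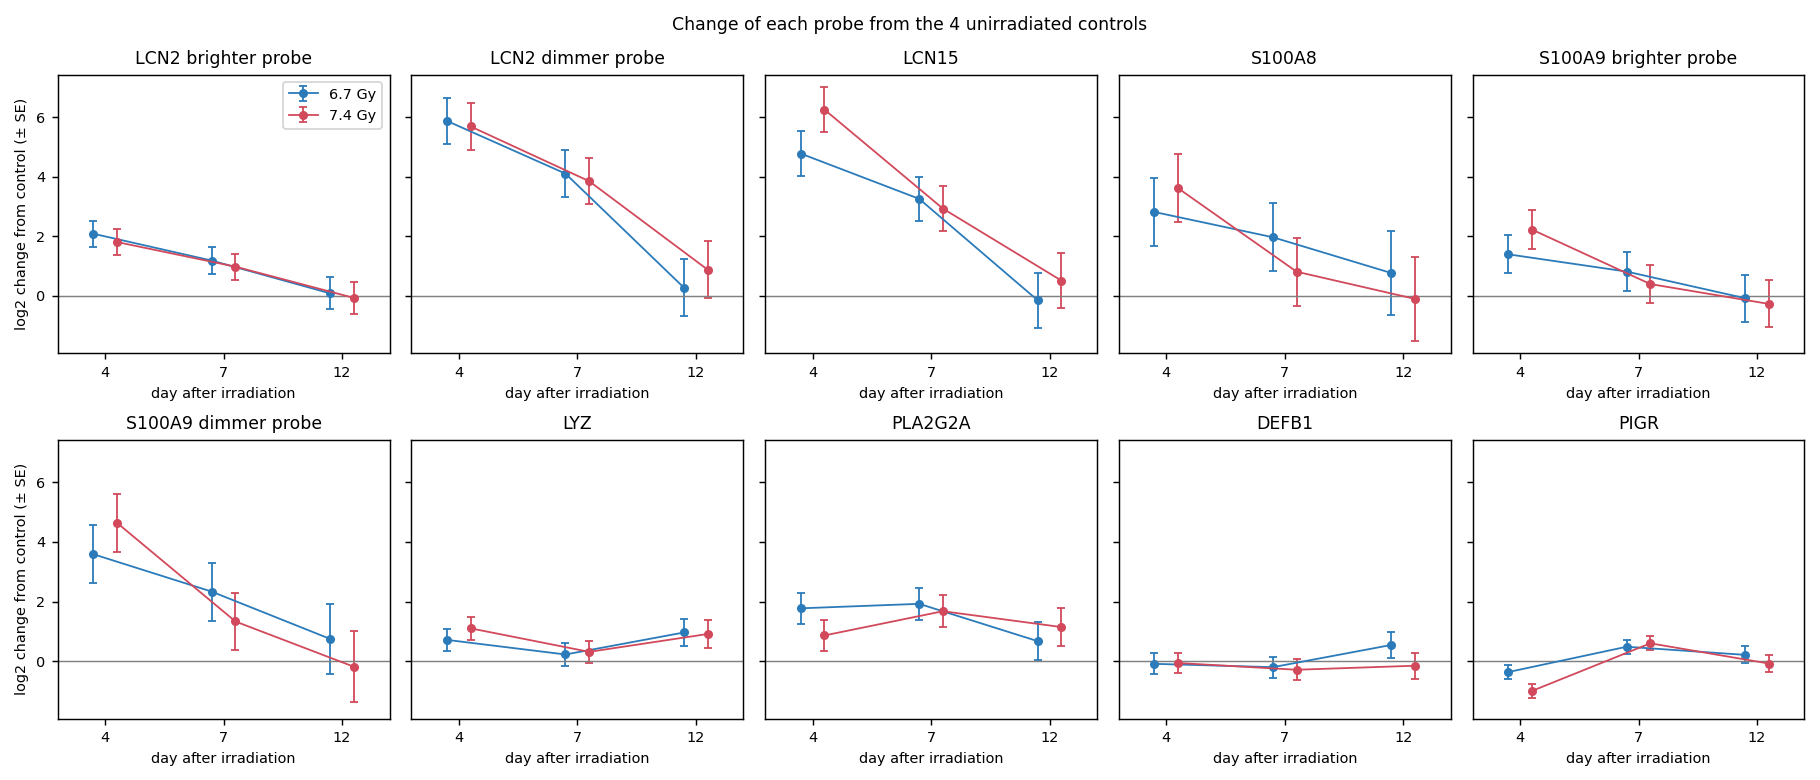
Log2 change of each probe from the mean of the 4 controls (y axis) on days 4, 7 and 12 (x axis, drawn at equal steps) after 6.7 Gy (blue) and 7.4 Gy (red); bars are the SE of the limma fit. The changes of the LCN2, LCN15, S100A8 and S100A9 probes are largest on day 4, the dimmer LCN2 probe from 5.87 and 5.68 to 0.28 and 0.88 on day 12, while PIGR is lowest on day 4.

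Over the 10 probes, 5 were called at 6.7 Gy and 7 at 7.4 Gy on day 4, where 3.6% and 7.04% of all probes were called. In both counts 3 are the lipocalin probes, whose day 4 change chose the group, and the others are PLA2G2A and the dimmer S100A9 probe at 6.7 Gy and S100A8, both S100A9 probes and LYZ at 7.4 Gy. On day 7 the dimmer LCN2 probe was the single call at each dose, where 0.319% and 0.39% of all probes were called. On day 12 none of the 10 was called by limma, where 0.0183% and 0.0262% of all probes were; at an unadjusted p under 0.05 with a 2-fold change none of the 10 passed either. From day 4 to day 7, 4 of the 10 were called (PIGR higher; LCN15, the dimmer LCN2 probe and the dimmer S100A9 probe lower) against 4.44% of all probes, where the LCN15 and LCN2 differences start from the day 4 values that chose the group and nothing is read from them, and from day 7 to day 12 the dimmer LCN2 probe alone against 0.118%. Irradiated animals did not overlap the controls for 5 of 10 probes at 6.7 Gy and 7 of 10 at 7.4 Gy on day 4, where this held for 15.8% and 23.3% of all probes and 3 of each count are again the lipocalin probes whose day 4 values chose the group, and for 7 and 1 of 10 on day 7, against 7.01% and 5.65%. Days 7 and 4 did not overlap for 1 of 10 (PIGR), against 4.04% of all probes, and days 12 and 7 for 3 of 10, against 1.44%. The comparisons with the controls all share the same 4 animals. These also entered the day 4 increases that chose the group. For LCN2 and LCN15 the day 7 counts against control are therefore not independent of that choice. Some of the day 7 separations at 6.7 Gy were narrow, and the probes of 1 gene and of the calprotectin pair are correlated.

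Next, the doses were set against each other. On day 4 the 7.4-Gy group was 1.74-fold above the 6.7-Gy group for S100A8 (log2 0.80 ± 1.14, SE, limma adjusted p = 0.952), 2.07-fold for the dimmer S100A9 probe (log2 1.05 ± 0.97, adjusted p = 0.932) and 1.55-fold below it for PIGR (log2 -0.63 ± 0.23, adjusted p = 0.659; all 4 animals at 7.4 Gy below the 6.7-Gy mean). LCN15 was 2.78-fold higher at 7.4 than at 6.7 Gy on day 4, given as a description, and on day 7 it was 1.25-fold lower and not called. None of the 10 probes was called between doses on day 4, 7 or 12 by limma, where 0% of all probes were called on any of these days, and the interaction of dose with day (4 or 7) was called for none of the 10, where 0.00262% of all probes were. At an unadjusted p under 0.05 with a 2-fold change, none of the 10 passed in these comparisons, and 440, 172 and 455 probes of the whole array did between doses on days 4, 7 and 12. The SE of these dose differences reached 1.14 log2 units on days 4 and 7 and 1.61 on day 12 and for the interaction, so differences of the size seen for calprotectin could not be told from 0.

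Ordered by group mean, the probes fell into different sequences. The brighter LCN2 probe ran from 6.7 Gy day 4 (5.31) through 7.4 Gy day 4 (5.03), 6.7 Gy day 7 (4.41), 7.4 Gy day 7 (4.20), 6.7 Gy day 12 (3.31) and control (3.22) to 7.4 Gy day 12 (3.16), and no step in that order exceeded the larger SD of its 2 groups. On the dimmer probe 2 steps did, from 7.4 Gy day 4 to 6.7 Gy day 7 and from 7.4 Gy day 7 to 7.4 Gy day 12. For LCN15 the single such step lay between 7.4 Gy day 7 (-3.02) and 7.4 Gy day 12 (-5.44), with the groups of days 4 and 7 above it and day 12 and the controls below. S100A8 showed no such step, and S100A9 showed them only among the low groups of day 12 and the controls. LYZ, PLA2G2A and DEFB1 had none. For PIGR, both groups of day 7 (1.56 and 1.45) stood above the next group by more than the SD of day 7, and 7.4 Gy day 4 (-0.04) stood below all the others.

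The agreement between probes of a gene was examined over all 24 arrays. The LCN2 probes correlated at Pearson's r = 0.949 and Spearman's rho = 0.947, and the S100A9 probes at r = 0.942 and rho = 0.910, as descriptions over arrays that share their groups. The size did not agree: the brighter LCN2 probe covered a range of 3.12 log2 units and the dimmer 7.24, with a slope of 2.44, and the S100A9 probes covered 4.87 and 8.04, with a slope of 1.70. The signs of the group changes agreed in 5 of 6 groups for each gene. They differed for LCN2 at 7.4 Gy on day 12 (-0.07 on the brighter probe and 0.88 on the dimmer) and for S100A9 at 6.7 Gy on day 12 (-0.08 and 0.75). Averaged over its probes, LCN2 on day 4 was at 3.98 and 3.75 log2 units above the controls, and S100A9 at 2.49 and 3.44, for 6.7 and 7.4 Gy. S100A8 followed its partner S100A9 with r = 0.937 against the brighter probe and 0.953 against the dimmer. Which region of the transcript each probe binds was not analysed here.

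**Figure D3:**
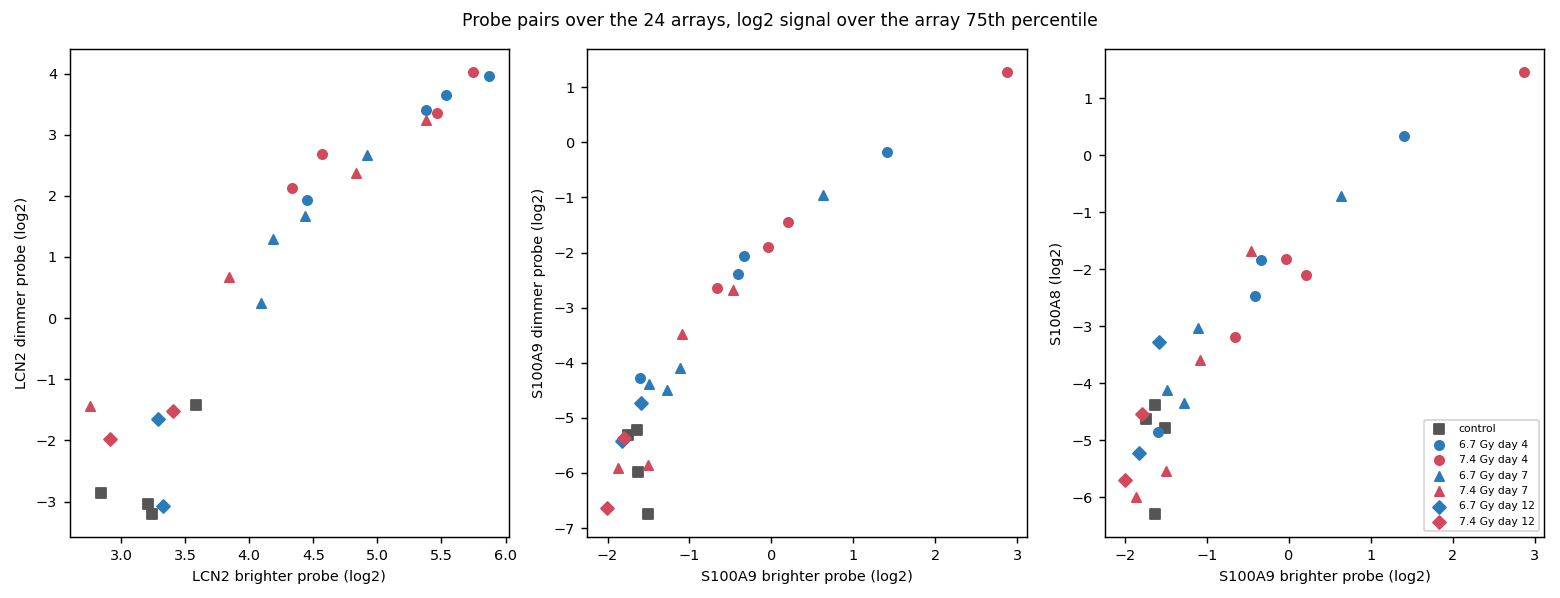
Log2 signals over the array's 75th percentile of the LCN2 probes (left), the S100A9 probes (middle) and S100A8 against the brighter S100A9 probe (right) on the 24 arrays; colour gives the dose and the symbol the day. The 4 controls lie between -1.75 and -1.51 on the brighter S100A9 probe and between -6.75 and -5.23 on the dimmer.

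Across 13966 named genes outside the list, those whose signal over the 24 arrays was most like a probe differed between the families, and these correlations are descriptions over arrays that share group and processing. For the brighter LCN2 probe they were TXN (thioredoxin; r = 0.935), PI3 (elafin, an antimicrobial protease inhibitor; 0.935), SND1 (0.920), DNAJC10 (0.918) and CLDN2 (claudin 2, of tight junctions; 0.914). For LCN15 they were TNIP3 (r = 0.929), GPR110 (0.923), SCEL (0.920), BIRC3 (0.915) and CLDN2 (0.909). S100A8 had CCL11 (eotaxin; r = 0.853), INHBA (0.837), PROCR (0.828), GPR84 (0.803) and SH2D5 (0.792), and the brighter S100A9 probe had CCL11 (0.904), INHBA (0.875), ARTN (0.850), HIF1A (0.835) and TIMP1 (0.832). LYZ had SLC31A2 (r = 0.837), TLR8 (0.755), LIN7A (0.724), CASP4 (0.711) and TGM1 (0.706). PIGR had LOC714581 (r = 0.913), DNMBP (0.910), GJB1 (0.906), SEMA4G (0.895) and BCL2L15 (0.886), and PLA2G2A had LOC721769 (r = 0.808), LOC698401 (0.758), SHH (0.746), LOC695836 (0.743) and CENPE (0.742).

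Other genes of host defence were taken from a list of 54, of which 32 could be tested. On day 4, 5 were called higher and 0 lower after 6.7 Gy, and 7 higher and 1 lower after 7.4 Gy. Of all probes, 3.6% and 7.04% were called in these comparisons. The median log2 change of the list was 0.19 and 0.22 against -0.07 and -0.08 over all probes. SAA1, an acute-phase apolipoprotein, was not well above background on any control array. Its increase was at least 11.3-fold after 6.7 Gy (limma adjusted p = 0.0226) and at least 23.0-fold after 7.4 Gy (adjusted p = 0.00337). DEFA6, a defensin of Paneth cells, was 44.3-fold higher at 7.4 Gy (adjusted p = 0.0195; control level well above background on 3 of 4 arrays) and 7.05-fold higher, not called, at 6.7 Gy (adjusted p = 0.271). ZG16, a lectin of goblet cells, was 3.01-fold lower at 7.4 Gy (adjusted p = 0.0116). PI3, CHI3L1 and NOS2 were also called higher at both doses, SLPI at 6.7 Gy, and SAA4 and DUOXA2 at 7.4 Gy. None of the 32 was called on day 7 by limma, where 8 at 6.7 Gy and 7 at 7.4 Gy passed an unadjusted p of 0.05 with a 2-fold change. Of all 38234 probes, 0.319% and 0.39% were called on that day, and 883 and 1023 passed the unadjusted threshold.

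The relatives of the listed genes moved little. Of 7 other lipocalins tested, 0 were called at 6.7 Gy (0 also at an unadjusted p of 0.05) and 1, LCN12, at 7.4 Gy on day 4. Of all probes, 3.6% and 7.04% were called. LCN12 read 3.02-fold lower (limma adjusted p = 0.0236), but it was well above background on 1 control array and on none of the 7.4-Gy arrays. Its level was thus near background in both groups, and no size can be given. Of 9 other S100 genes, 0 were called by limma on day 4 at either dose, and 0 passed an unadjusted p of 0.05 with a 2-fold change. Among 11 receptors and partners, MMP9, the gelatinase that forms a complex with LCN2, was 4.56-fold (adjusted p = 0.000686) and 2.85-fold higher (adjusted p = 0.00332) after the lower and the higher dose. TLR4, a receptor for calprotectin, was 2.09-fold (adjusted p = 0.00942) and 2.61-fold higher (adjusted p = 0.000598). BSG, which binds S100A9, was 2.55-fold lower at 7.4 Gy (adjusted p = 0.000397).

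Inducers of LCN2 and calprotectin and regulators of NF-kB and STAT3, some of which (TNFAIP3, SOCS3) restrain these pathways, were counted as a list of 28 tested genes. At 6.7 Gy on day 4, 3 were called higher and 0 lower (TNFAIP3, RELB and IL1A), and at 7.4 Gy 7 higher and 0 lower (TNFAIP3, IL1A, IL1B, TNF, IL17F, OSM and TLR2), with medians of 0.54 and 0.49 log2 units. Of all probes, 3.6% and 7.04% were called. IL1A, a cytokine that activates NF-kB, was 13.5-fold (limma adjusted p = 0.00517) and 33.9-fold higher (adjusted p = 0.000191), with 1 control array well above background. OSM, oncostatin M, a cytokine that acts through STAT3, was at least 2.61-fold higher at 7.4 Gy (adjusted p = 0.0133). It was well above background on no control array and on 3 of 4 arrays at 7.4 Gy. At 6.7 and 7.4 Gy, 25 and 21 of the 28 genes were not called. Among these were SOCS3, a STAT3 target (limma adjusted p = 0.523 and 0.130), and IL6 (adjusted p = 0.589 and 0.987). Both were picked after their values were seen, and STAT3 signalling itself was not tested. None of the 28 was called on day 7 by limma, where 2 passed an unadjusted p of 0.05 with a 2-fold change at each dose. Of all 38234 probes, 883 at 6.7 Gy and 1023 at 7.4 Gy passed that unadjusted threshold. From day 4 to day 7, 4 of the 28 were called lower, where 4.44% of all probes were called.

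**Figure D4:**
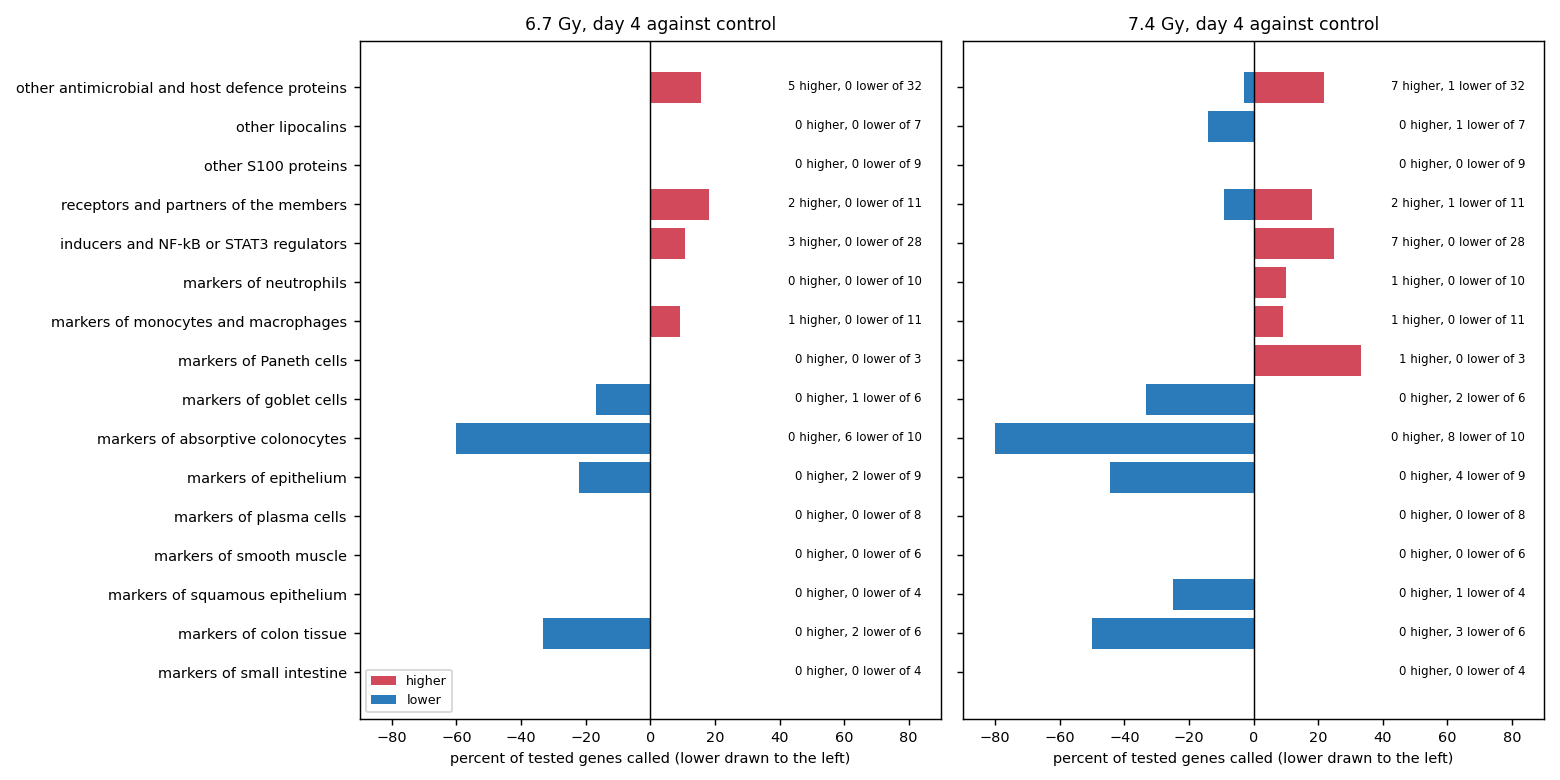
Share of the tested genes of each list that were called higher (red, to the right) or lower (blue, to the left) on day 4 after 6.7 Gy (left panel) and 7.4 Gy (right panel), with the counts printed beside each bar. Markers of absorptive colonocytes have the most genes called lower, 6 of 10 and 8 of 10, and the neutrophil list has 0 and 1 of 10 called higher. Of all probes, 3.6% and 7.04% were called.

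Markers of the cells that could carry these transcripts were measured on the same arrays. Of the neutrophil markers 10 could be tested, and on day 4 none was called at 6.7 Gy by limma (1 passed an unadjusted p of 0.05 with a 2-fold change) and 1 was called higher at 7.4 Gy. Of all probes, 3.6% and 7.04% were called at these doses. The mean of the neutrophil list ran from -3.08 to -2.49 in the controls, from -2.90 to -2.07 at 6.7 Gy and from -3.09 to -2.16 at 7.4 Gy, so the groups overlapped. MPO, ELANE, PRTN3 and CXCR2 of that list were not tested, and MMP8 and CTSG were not called. Both were near background: MMP8 was well above it on 1 of 4 arrays in the controls and at each dose. CTSG was well above it on 2 control arrays, 1 array at 6.7 Gy and 2 at 7.4 Gy. Of 11 monocyte and macrophage markers, VCAN was called at both doses (2.63- and 2.98-fold higher, adjusted p = 0.00408 and 0.000575), and the list mean lay between 0.26 and 0.47 in the controls, between 0.48 and 1.21 at 6.7 Gy and between 0.46 and 1.46 at 7.4 Gy. The part of these cells in the S100A8, S100A9 and LYZ values was not tested.

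Some epithelial markers were also called on day 4, where 3.6% and 7.04% of all probes were called at 6.7 and 7.4 Gy. Of 10 markers of absorptive colonocytes, 6 were called lower at 6.7 Gy and 8 at 7.4 Gy, with medians of -2.52 and -3.90 log2 units. The list mean ran from 3.55 to 4.02 in the controls, from 0.23 to 1.98 at 6.7 Gy, from -1.04 to 1.90 at 7.4 Gy and from 1.19 to 3.80 on day 7 at 7.4 Gy. CA1, carbonic anhydrase 1, fell 66.4-fold at 6.7 Gy and 176-fold at 7.4 Gy (limma adjusted p = 0.00129 and 5.92e-05), with 2 and 1 of 4 irradiated arrays well above background. TMIGD1 was 17.8- and 32.0-fold lower (adjusted p = 0.0199 and 0.00318), with 3 and 2 of 4 irradiated arrays well above background. Of 9 general epithelial markers, 2 were called lower at 6.7 Gy and 4 at 7.4 Gy, and 0 higher. Among them KRT20, a keratin of mature epithelium, was 2.52- and 3.01-fold lower (adjusted p = 0.00137 and 9.67e-05). VIL1, of the brush border, was called at 7.4 Gy (3.11-fold lower, adjusted p = 4.25e-05). Of 6 goblet cell markers, 1 was called lower at 6.7 Gy and 2 at 7.4 Gy, and 0 higher. Among them ATOH1, the factor that specifies secretory cells, was 2.49- and 4.49-fold lower (adjusted p = 0.0342 and 0.000737). Of the 10 colonocyte markers, 8 were called higher on day 7 than on day 4 over both doses, the comparison in which PIGR rose. Of all probes, 4.44% were called there. The part of epithelial cell number in the PIGR, LCN2 and LCN15 values was not tested.

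Other cell types were checked in the same way. Of 8 plasma cell markers, source of the immunoglobulin that PIGR carries, none was called on day 4 by limma at either dose (0 at an unadjusted p of 0.05 with a 2-fold change), with medians of -0.16 and -0.38 log2 units. From day 4 to day 7, the comparison in which PIGR rose, 2 of the 8 were called lower, TNFRSF17 and DERL3, where 4.44% of all probes were called. None of 6 smooth muscle markers and none of 4 small intestine markers was called by limma, 0 of them also at an unadjusted p of 0.05 with a 2-fold change, and of 4 squamous markers KRT14 fell 2.17-fold after the higher dose (limma adjusted p = 0.000522). Of 3 Paneth cell markers only DEFA6 was called, at 7.4 Gy. The 6 colon markers tested were each well above background on at least 1 control array, as were the 4 of small intestine.

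The day 4 values were also taken within scan days, since the 4 controls were scanned on 2 days, 2 on each. After 6.7 Gy the dimmer LCN2 probe was 6.84 log2 units above the controls of the first scan day and 4.90 above those of the second, LCN15 5.94 and 3.61, S100A8 2.43 and 3.20, the brighter S100A9 probe 1.20 and 1.59, the dimmer 3.76 and 3.42, and LYZ 0.44 and 0.99. The 4 arrays of 7.4 Gy day 4 were all scanned on the second day, and their differences from its 2 controls were 5.28 for the dimmer LCN2 probe, 5.79 for LCN15, 4.05 for S100A8, 4.47 for the dimmer S100A9 probe and 1.35 for LYZ. PIGR at 6.7 Gy changed sign between scan days, with 0.41 on the first and -1.13 on the second, and at 7.4 Gy it was -1.46. DEFB1 also changed sign at 6.7 Gy, with 0.91 and -1.08, and at 7.4 Gy it was -0.54. All 4 controls lay at position 1 of a slide, with 2 of the 6.7-Gy day 4 arrays and no array of day 7 or 12. So on days 7 and 12 array position and group cannot be told apart. The 4 arrays of 7.4 Gy day 4 all lay at position 2, without a control but with the other 6.7-Gy day 4 arrays. With array position as a block they were thus compared with the controls only through the 6.7-Gy day 4 arrays. Days 4 and 7 shared no position, so between them day and position cannot be told apart. Within position 1, the 6.7-Gy day 4 difference was 5.30 for the dimmer LCN2 probe, 4.07 for LCN15, 3.59 for the dimmer S100A9 probe, 1.47 for PLA2G2A and -0.67 for PIGR. With array position as a block the day 4 calls of S100A8, both S100A9 probes, LYZ, PLA2G2A and, at both doses, the brighter LCN2 probe were lost, and PIGR at 7.4 Gy passed the 2-fold limit (log2 -1.62) and was called. With position and scan day as blocks all 7 calls at 7.4 Gy were lost, LCN15 and the dimmer LCN2 probe included, and PIGR was called (log2 -2.24). With slide as a block, those of S100A8, LYZ, PLA2G2A, the brighter S100A9 probe and, at 6.7 Gy, the dimmer S100A9 probe were lost. All lost calls kept their direction.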

How the data were processed

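Per the file headers, the authors extracted intensity values with Agilent Feature Extraction 11.0.1.1, which subtracted the background, on an array designed from rheMac2. The authors also deposited a table of normalized log2 values, used here as an alternative; their methods name scaling to the 75th percentile. Their table of raw signals was not used.

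Control spots were left out, as were 24 to 712 outlier spots on each array, and replicate spots were averaged. Log2 processed signals, less the 75th percentile of their array, were fitted with lmFit and eBayes of limma 3.58.1 in R 4.3.3, with 1 mean for each of 7 groups over 24 arrays; two-sided p-values were corrected by Benjamini-Hochberg across the probes tested. The methods' own test, a t-test of 2 groups with Benjamini-Hochberg adjustment, was an alternative. Other computations used Python 3.11.15 with numpy 2.4.6 and pandas 2.3.3. The procedure was tested on simulated data.

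Where no array of a group was well above background, the fold is a bound: the brighter group's mean against the mean, per array, of the higher of the probe's value and the lowest signal well above background. LCN12 was near background in both groups, so its measured fold is given instead. The members and the gene lists were chosen with earlier results of these data known. Members are named in full; from each list, the 2 highest and 2 lowest called at 7.4 Gy day 4 that moved alike in every animal are given with values, and others with values (SOCS3, IL6) or named alone (TNFRSF17, DERL3) were chosen after their values were seen. The values of 1 listed gene are not reported here. For genes with several probes the brightest stood for the gene in the lists. Gene names came from the deposited tables and, by accession, from RefSeq. Replicates are different animals, and their number limits the precision. Replicate numbers do not pair animals: deviations of equally numbered arrays correlated at a median of 0.0025 (-0.228 to 0.236). The probes' sequences were not analysed here.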

Additional observations from a re-analysis of the deposited data

Results flagged for a closer look

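In the 6.7-Gy group of day 7, replicate 2 stood apart on the dimmer S100A9 probe, at -0.96 where the next of the 4 animals was at -4.10. Its gap to the nearest animal was 0.888 of the group's range, above the 0.829 that marks an outlier among 4 samples. The same animal was also the highest of its group for S100A8 and the brighter S100A9 probe. Of 50 groups of 4 examined over the 10 probes, 1 was marked, and chance marks about 1 in 20.

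On day 12, DEFB1 lay above the control mean in both animals after 6.7 Gy (by 0.17 and 0.93 log2 units) and below it in both after 7.4 Gy (by -0.08 and -0.21), a difference between doses of -0.70. With 2 animals per dose, the limma test of that dose difference gave an adjusted p of 0.999.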

How the results depend on the processing

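No called value changed direction under any alternative. Of 518 recomputed values of the 19 calls, 427 stayed past the threshold and 91 did not; the cause was not tested. The probes called on day 4 at 6.7 Gy (5) numbered 2 by the methods' t-test, 3 with slide as a block, 2 with array position as a block and 2 with position and scan day as blocks, and 3 to 5 with an array left out. At 7.4 Gy (7) they numbered 4, 4, 3 and 1 under the same alternatives and 4 to 8 with an array left out, the lowest without replicate 3 of the group. The 1, and 1 of the 3, are PIGR, so no call of the 7 remained with position and scan day as blocks and 2 with position alone. On day 7 at 6.7 Gy (1) they numbered 0 with spike-in scaling, 2 with every array of a group above background, 0 by the methods' t-test and 5 without its adjustment, 0 with only the groups compared, and 0 to 1 with an array left out. At 7.4 Gy on day 7 (1) they numbered 0 by the methods' t-test and 3 without its adjustment, 0 with only the groups compared, 0 with slide as a block, and 0 to 2 with an array left out, the highest without replicate 3 of the group. From day 7 to day 12 (1) they numbered 0 with median scaling, 0 with no filter, 0 by the methods' t-test and 3 without its adjustment, 0 with only the groups compared, 0 with slide, position, scan day, or position and scan day as blocks, and 0 to 2 with an array left out, the highest without 7.4 Gy day 7 replicate 3. From day 4 to day 7 (4) they numbered 4 to 6 with an array left out. With the replicate block the counts were 5 and 7 on day 4, 1 and 1 on day 7, 4 from day 4 to day 7 and 0 from day 7 to day 12, where the block ended the call of the dimmer LCN2 probe; the replicate numbers do not pair animals.

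Spike-in scaling moved the median change of all probes by 0.12 to 0.29 log2 units, and normexp background correction by -0.10 to 0.31. LCN15, S100A8 and the dimmer S100A9 probe were near background in the controls, so their folds depend on dim signals. Array position as a block could not be fitted for day 7 against day 4 or for days 7 and 12 against control, and the methods' t-test was not run for the interaction.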
